A study of Mus musculus with 6 samples.

Results

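The 46 genes described here are mouse imprinted genes, chosen by name from 18 known imprinted clusters and found by symbol in GENCODE release M21 (build GRCm38), which holds 55413 genes on the assembled chromosomes. They comprise 39 protein-coding genes and 7 noncoding RNA genes, of which 22 are known to be expressed from the paternal copy, 19 from the maternal copy and 5 from either copy depending on the promoter or tissue. Each gene was scored for intervals that lay within 1 kb of any of its annotated transcript starts, and a gene with an H3K4me3 interval there is called marked. H3K4me3, histone H3 trimethylated at lysine 4, is a mark of promoters that are active or held open for transcription.

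Chromatin immunoprecipitation followed by sequencing mapped H3K4me3 and Tex10 in PGCLCs, mouse primordial germ cell-like cells, which are cultured counterparts of the embryonic precursors of eggs and sperm, at day 2. There were 2 samples precipitated for H3K4me3, 2 precipitated through an HA tag on the C terminus of Tex10, a nuclear protein known from pluripotent cells, and 2 of input DNA. All 6 samples came from the strain 129Sv/J, were untreated and carried the tagged Tex10. The deposited data used here are interval lists, 1 per antibody, with positions but no heights or scores, so no value has a replicate error, no test was made, and the depth is unknown. Nothing from the input was analysed here. The lists do not separate the parental copies, so an interval can come from either copy or from both. They measure a histone mark and a bound protein, not RNA. Of 7 germ cell and pluripotency genes (Prdm1, Tfap2c, Prdm14, Dppa3, Nanog, Pou5f1 and Sox2) 6 were marked (Wilson 95% interval 48.7 to 97.4%, against 61.6% of protein-coding genes).

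Imprinted genes are expressed from a single parental copy because one copy was methylated in the egg or sperm, most often at a CpG-rich control region called a germline differentially methylated region (DMR). Many germline DMRs sit on the promoter of a paternally expressed gene, often a noncoding RNA, whose active copy carries H3K4me3 while the maternal copy is methylated and lacks it. Maternally expressed neighbours are silenced on the paternal copy, in several clusters by that noncoding RNA. Primordial germ cells erase these marks before the next generation sets new ones.

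The sequence of a promoter bears on the mark, since H3K4me3 is laid down largely at CpG-rich DNA. The stretches below were chosen to show the range from CpG-rich to CpG-poor member promoters, with and without the mark. Each is the 200 bases just before a transcript start, read 5′ to 3′ on the gene's strand from the RefSeq genome GRCm38.p6, with every CpG in capitals. The first 4 had a transcript start inside an H3K4me3 interval. They belong to the main promoter of Grb10, a growth-restraining adaptor of the insulin receptor (chr11:12037402-12037601, minus strand, 32 CpGs), Zdbf2, a zinc finger gene (chr1:63273065-63273264, plus strand, 24 CpGs), Meg3, a long noncoding RNA (chr12:109540801-109541000, plus strand, 8 CpGs), and the DMR promoter of Snrpn, which encodes the splicing protein SmN (chr7:60005112-60005311, minus strand, 11 CpGs).
Grb10 main promoter: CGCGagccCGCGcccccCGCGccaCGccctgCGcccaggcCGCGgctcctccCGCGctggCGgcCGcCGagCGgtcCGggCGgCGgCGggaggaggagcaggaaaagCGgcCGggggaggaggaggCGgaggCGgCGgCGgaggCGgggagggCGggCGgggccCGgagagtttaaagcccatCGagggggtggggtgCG
Zdbf2: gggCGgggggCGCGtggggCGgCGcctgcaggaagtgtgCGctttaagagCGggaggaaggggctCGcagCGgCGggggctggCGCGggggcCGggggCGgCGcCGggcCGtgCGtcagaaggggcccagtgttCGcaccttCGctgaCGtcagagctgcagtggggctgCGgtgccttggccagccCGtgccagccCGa
Meg3: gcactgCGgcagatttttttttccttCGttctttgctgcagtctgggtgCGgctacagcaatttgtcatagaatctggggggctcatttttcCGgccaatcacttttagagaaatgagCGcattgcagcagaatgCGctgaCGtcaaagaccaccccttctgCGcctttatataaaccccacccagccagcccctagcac
Snrpn DMR promoter: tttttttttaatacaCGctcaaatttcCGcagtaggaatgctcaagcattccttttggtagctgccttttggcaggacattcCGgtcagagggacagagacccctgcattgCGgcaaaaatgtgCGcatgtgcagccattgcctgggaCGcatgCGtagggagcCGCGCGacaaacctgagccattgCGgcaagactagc
The next 3 were rich in CpG and had no interval within 1 kb. They belong to the DMR promoter of Mest, a hydrolase-like gene of mesoderm (chr6:30737850-30738049, plus strand, 12 CpGs), the internal DMR promoter of Grb10 (chr11:12026733-12026932, minus strand, 11 CpGs), and Kcnk9, a potassium channel gene (chr15:72546341-72546540, minus strand, 13 CpGs).
Mest DMR promoter: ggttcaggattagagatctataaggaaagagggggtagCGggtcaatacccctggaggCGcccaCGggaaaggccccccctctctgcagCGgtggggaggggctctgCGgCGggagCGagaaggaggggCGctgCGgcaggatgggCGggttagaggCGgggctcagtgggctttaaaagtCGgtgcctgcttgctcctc
Grb10 DMR promoter: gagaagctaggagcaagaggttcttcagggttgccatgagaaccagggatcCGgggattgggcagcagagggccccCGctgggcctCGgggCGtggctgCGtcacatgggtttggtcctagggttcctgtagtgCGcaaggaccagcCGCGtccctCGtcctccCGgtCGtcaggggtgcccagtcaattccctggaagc
Kcnk9: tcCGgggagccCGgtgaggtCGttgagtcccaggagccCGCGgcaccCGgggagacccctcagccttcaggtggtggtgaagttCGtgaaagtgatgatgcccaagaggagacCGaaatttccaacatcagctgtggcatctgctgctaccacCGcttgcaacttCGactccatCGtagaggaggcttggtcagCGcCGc
The last 3 were poor in CpG and unmarked. They belong to Tspan32, a tetraspanin gene (chr7:143004846-143005045, plus strand, 1 CpG), Slc22a18, a transporter gene (chr7:143473536-143473735, plus strand, 0 CpGs), and Rian, a noncoding host of small nucleolar RNAs (chr12:109603740-109603939, plus strand, 0 CpGs).
Tspan32: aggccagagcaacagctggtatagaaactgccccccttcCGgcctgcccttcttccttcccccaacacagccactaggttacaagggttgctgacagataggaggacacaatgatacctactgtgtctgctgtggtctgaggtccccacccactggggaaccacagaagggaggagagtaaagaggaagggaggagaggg
Slc22a18: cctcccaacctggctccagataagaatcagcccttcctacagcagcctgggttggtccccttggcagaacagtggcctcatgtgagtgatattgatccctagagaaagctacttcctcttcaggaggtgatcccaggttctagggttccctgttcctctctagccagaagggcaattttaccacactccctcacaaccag
Rian: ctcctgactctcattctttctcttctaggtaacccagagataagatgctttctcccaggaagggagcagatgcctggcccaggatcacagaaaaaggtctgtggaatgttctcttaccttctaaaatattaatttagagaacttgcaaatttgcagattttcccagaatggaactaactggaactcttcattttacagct

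H3K4me3 lay at a transcript start of 36 of the 46 imprinted genes (78.3%, Wilson 95% interval 64.4 to 87.7%), against 49.1% of the 31868 GENCODE genes of the same gene types. Of the protein-coding members 32 of 39 were marked (82.1%, 67.3 to 91.0%), against 61.6% of 21938 protein-coding genes. The noncoding members Airn, Kcnq1ot1, Meg3 and Peg13 were marked and H19, Rian and Mirg were not, so that 4 of 7 carried the mark, against 21.4% of noncoding genes of these types. With only intervals wider than the median of the H3K4me3 list, 23 of 46 members were marked, against 39.5% of genes. At the 5′-most start alone, where each gene has 1 start, 31 of 46 members were marked, against 46.3% of genes. The Wilson intervals treat genes as independent, which neighbours are not: 55 separate H3K4me3 intervals lay at the members, and 5 of them served 2 members each. The pairs that shared intervals were Peg3 with Usp29, Peg10 with Sgce, and Zrsr1 with Commd1.

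**Figure D1:**
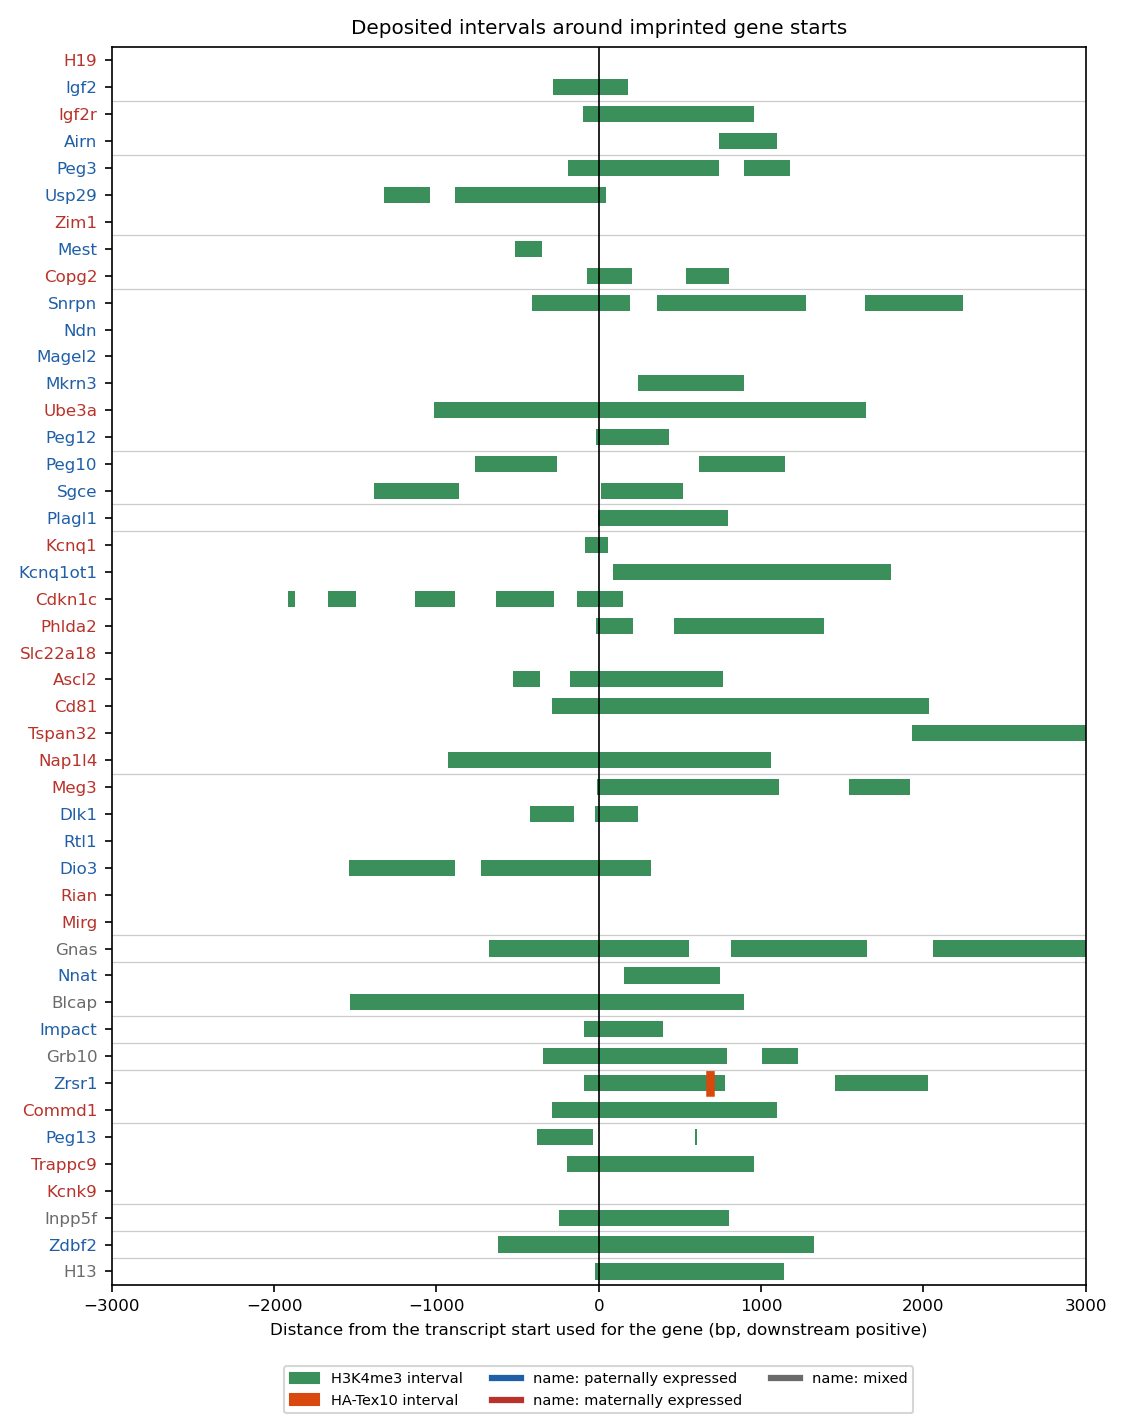
Positions of the deposited H3K4me3 (green) and HA-Tex10 (orange) intervals around 1 transcript start of each of the 46 imprinted genes (bp, downstream positive, names coloured by the expressed copy, thin lines between clusters). The start shown is the one nearest an H3K4me3 interval, or the 5′-most start of an unmarked gene. The 10 unmarked genes have no green bar within 1 kb of 0, and the single orange bar lies at Zrsr1.

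The mark was set beside CpG content, as the ratio of observed to expected CpGs in the 1 kb around 1 start of each gene. That start was the one nearest an interval in a marked gene and the 5′-most one in an unmarked gene, so the classes were set partly by the mark, for members and for all genes alike. Of the members with a ratio under 0.4, 0 of 6 were marked (Wilson 95% interval 0 to 39.0%), against 8.33% of all genes in that class. From 0.4 to 0.65, 12 of 15 members were marked (80.0%), against 70.2% of all genes. At 0.65 and over, 24 of 25 members were marked (96.0%), against 96.9%. Within each class the members' Wilson interval held the value of all genes, and 25 of the 46 members fell in the CpG-richest class. With the 5′-most start of every gene taken for both the ratio and the mark (added after seeing the data), 1 of 11 members (Kcnq1) was marked under 0.4, 14 of 17 from 0.4 to 0.65 and 16 of 18 above. The shares over all genes were then 8.33%, 67.7% and 96.5%, and at the CpG-rich end the members' interval of 67.2 to 96.9% held the last value.

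The 10 unmarked members were H19, Zim1, Ndn, Magel2, Slc22a18, Rtl1, Rian, Mirg, Kcnk9 and Tspan32. The exception at the CpG-rich end was Kcnk9, with a ratio of 0.913 and its nearest H3K4me3 interval 116630 bp away. Among the unmarked genes of the H19 and Dlk1-Meg3 regions, H19, the noncoding RNA that hosts miR-675, was 42769 bp from the nearest interval. The retrotransposon-derived placental gene Rtl1 was 57413 bp away, and the noncoding RNAs Rian and Mirg, which host small nucleolar RNAs and microRNAs, were 61023 and 174065 bp away. Rian and Mirg lie downstream of Meg3 on its strand and are thought to be read with it as a long transcript, so an absent mark at their own annotated starts does not say that they are not transcribed. The MAGE genes Ndn and Magel2, known from Prader-Willi syndrome, were 10923 and 41364 bp from an interval. The zinc finger gene Zim1 was 32802 bp away and Slc22a18 was 8280 bp away. Tspan32 lay just outside the threshold, 1047 bp from an interval of 1572 bp, and the last member inside it was Airn, at 743 bp.

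By expressed copy, 19 of 22 paternally expressed members were marked (86.4%, 66.7 to 95.3%), 12 of 19 maternally expressed members (63.2%, 41.0 to 80.9%) and 5 of 5 with mixed expression. The intervals of the paternal and maternal shares overlap. Of all genes of these types 49.1% were marked, and of protein-coding genes 61.6%, both inside the maternal interval and below the paternal one. With only intervals wider than the list median, 9 of 22 paternal and 9 of 19 maternal members were marked, against 39.5% of genes. At the 5′-most start alone, 15 of 22 paternal and 12 of 19 maternal members were marked, against 46.3% of genes. Without the members known to be imprinted mainly in placenta or brain, 5 of 10 maternal members were, against 49.1% of genes. Each of the 12 marked maternally expressed members and each of the 5 mixed ones had a transcript start inside an H3K4me3 interval, while 11 of 19 marked paternally expressed members did (57.9%). The other 8 paternal members (Airn, Mest, Mkrn3, Peg10, Sgce, Kcnq1ot1, Nnat and Peg13) had an interval beside their start. Starts of every transcript were counted. At maternal Kcnq1, Cdkn1c and Phlda2 and at paternal Impact, only starts of transcripts not tagged basic by GENCODE lay inside. Their nearest basic starts were 451, 17, 13 and 385 bp from an interval. Over all members 28 of 36 marked genes had a start inside an interval (77.8%), against 86.3% of marked genes of these types. Of the 36, 16 have a germline DMR at a promoter, and 9 of these had a start inside an interval (56.25%), against 19 of the 20 others. Of the 6 marked paternal members with no such DMR, 5 had a start inside an interval.

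At the 17 promoters of these 16 genes that are known to lie in a germline DMR (chosen by name after the intervals had been looked at, and with no DMR positions in the files), the transcript start lay inside an H3K4me3 interval at 6 (35.3%). The interval was within 1 kb but beside the start at 8 (47.1%), and no interval came within 1 kb at 3 (17.6%). Starts of every transcript were used here. The 29 other member promoters with a CpG ratio of 0.4 or more and a transcript tagged basic by GENCODE had the start inside an interval in 23 cases (79.3%), beside it in 2 (6.90%) and none in 4 (13.8%). Promoters of that kind in other genes, 17202 in number, divided as 75.1%, 9.97% and 14.9%. The DMR promoters were not held to the CpG limit or to basic transcripts. When all 3 sets were held to both and scored only at basic starts (added after seeing the data), 15 DMR promoters divided as 6 inside, 6 beside and 3 without an interval. The inner DMR promoter of Grb10 has no basic start and that of Impact has a ratio of 0.322, so both fell out. The 3 without an interval were then Mest, Inpp5f and Nnat. The 29 other member promoters divided as 19, 6 and 4, and those of other genes as 71.4%, 13.6% and 14.9%. Of 77 member promoters with a ratio under 0.4, of any transcript, 75 had no interval, and the other 2, of Mest and Impact, had one beside the start.

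The 6 DMR promoters with a start inside an interval belonged to Peg3 and Usp29, a zinc finger gene and a ubiquitin protease gene that face away from each other, to Snrpn, to Plagl1, a zinc finger regulator of growth, to the retrogene Zrsr1, and to Gnas at its exon 1A starts. The 8 with an interval beside the start were Airn (743 bp), Gnas at its Gnasxl start (394 bp), Peg10 (257 bp), Nnat (153 bp from a retained-intron start), Kcnq1ot1 (86 bp), Peg13 (36 bp), the inner promoter of Impact (36 bp) and Sgce (14 bp). The interval was downstream of the start at 5 of these 8 and upstream at Gnasxl, Peg10 and Peg13. The 3 without an interval were Mest (nearest 4946 bp, CpG ratio 0.781), the inner promoter of Grb10 (9445 bp, ratio 0.956) and that of Inpp5f (38387 bp, ratio 0.842). At its basic coding starts Nnat had no interval within 1 kb either, the nearest being 1032 bp away. Mest, Grb10 and Inpp5f were each marked at another promoter, Grb10 by 1135 bp and Inpp5f by 1044 bp at the main start, and Mest by 169 bp near an upstream start. The Mest DMR promoter printed above holds 12 CpGs in 200 bases, compared with 11 at the marked DMR promoter of Snrpn.

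**Figure D2:**
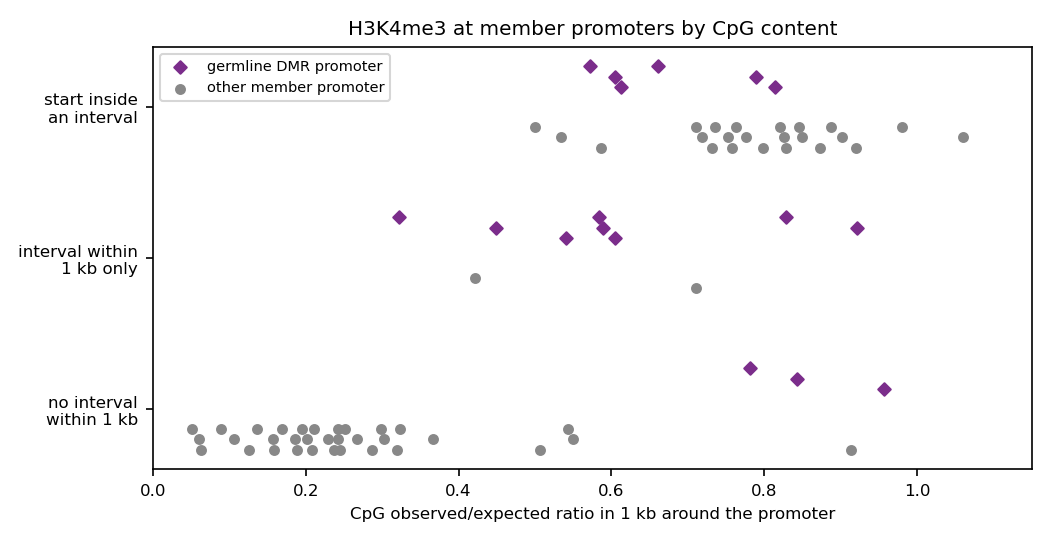
CpG observed/expected ratio in the 1 kb around 17 germline DMR promoters (purple diamonds) and 58 other member promoters with a basic transcript (grey circles), in 3 rows by H3K4me3. Points within a row are spread vertically only to be seen, and 3 purple points above a ratio of 0.7 lie in the row with no interval.

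In 10 preset pairs a paternally expressed gene was set beside a neighbour, maternally expressed in 9 pairs and mixed in the pair Nnat with Blcap. In the Igf2 region the fetal growth factor Igf2, paternally expressed, had 1 interval of 465 bp (chr7:142659310-142659774, over an exon), at 1 of its 9 starts, and H19 (chr7:142575529-142578143) had none. Igf2r, the maternally expressed receptor that clears Igf2, had 1054 bp over its first exon (chr17:12768707-12769760), and its silencing antisense RNA Airn had 356 bp (chr17:12742141-12742496), in an intron of both Airn and Igf2r. In the Peg3 region, the 933 bp interval chr7:6729690-6730622 covered first exons of Peg3 and Usp29, and maternally expressed Zim1 (chr7:6671269-6696450) had none. In all 3 pairs the paternal gene carried an interval, and the maternal gene did so in 1.

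Mest had the 169 bp interval chr6:30732936-30733104 in an intron, and its neighbour Copg2, a coatomer subunit, had 275 bp over its first exon (chr6:30896590-30896864) and 266 bp in an exon. Both were among the 5 narrowest. Snrpn had 608 bp over its first exon (chr7:60004917-60005524) and 921 bp in the intron next to it (chr7:60003835-60004755). Ube3a, the ubiquitin ligase of Angelman syndrome, which is expressed from both copies in most cells and from the maternal one in neurons, had the widest interval of any member, 2661 bp over its first exon (chr7:59227734-59230394). Kcnq1, a heart potassium channel gene, had the narrowest when each gene's widest interval was taken, 146 bp over a first exon (chr7:143106658-143106803). The noncoding Kcnq1ot1, which silences the cluster and starts inside Kcnq1, had 1715 bp in its exon and a Kcnq1 intron (chr7:143294749-143296463). So in the Mest and Snrpn pairs the maternal gene had the wider interval, and in the Kcnq1 pair the paternal RNA did.

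Meg3 had 1122 bp over its first exon (chr12:109540988-109542109) and 373 bp further in, and paternally expressed Dlk1, a Notch ligand-like gene, had 274 bp (chr12:109453110-109453383) and 266 bp (chr12:109453512-109453777) over exons. Zrsr1 had 868 bp over its first exon (chr11:22971914-22972781), which also lies in Commd1, the copper metabolism gene that hosts it. Commd1 had 1385 bp at its own main start (chr11:22981286-22982670). Peg13, a noncoding RNA in an intron of Trappc9, had 343 bp just upstream of its start (chr15:72810360-72810702) and 11 bp inside it, and the vesicle-tethering gene Trappc9 had 1151 bp (chr15:73060248-73061398). Nnat, which encodes neuronatin, lies in an intron of Blcap and had 597 bp in its exons (chr2:157561162-157561758), within 1 kb of 1 of its 10 starts. Blcap had 2424 bp at its main start (chr2:157565468-157567891). Of the 7 pairs of a paternal and a maternal gene with both marked, the widest interval was wider at the maternal gene in 6 and at the paternal one in 1, Kcnq1ot1. This count is of single intervals, and the pairs were not compared with nearby intervals joined. A further interval lay within 1 kb of the widest one at paternal Snrpn, Dlk1, Zrsr1 and Peg13 and at maternal Copg2 and Meg3. The 6 include Copg2, Ube3a, Commd1 and Trappc9, which are known to be imprinted mainly in placenta or brain. Of the maternal genes outside that group, Igf2r and Meg3 had the wider interval of their pair and Kcnq1 the narrower. For Zrsr1, Peg13 and Nnat, which lie inside another gene, the interval cannot be assigned to a gene from its position alone.

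The widest interval at a marked member had a median of 933 bp (range 146 to 2661 bp), against 1329 bp over the 15639 marked genes of these types. The exact binomial 95% interval of the members' median was 597 to 1135 bp. The median was 651 bp at paternally expressed, 1088 bp at maternally expressed and 1164 bp at mixed members, and the ranges overlap. The members known to be imprinted mainly in placenta or brain, with wider intervals (below), are all maternal or mixed. The medians by expressed copy therefore differ in that respect too. Several intervals lay at 17 of the 36 marked members (47.2%), against 22.9% of marked genes. These shares count intervals around every start and are not matched for the number of starts. The 46 members have 288 starts, more per gene than the 108148 starts of the 31868 genes of these types. Once intervals within 1 kb of each other were joined, the members' median was 1388.5 bp, against 1490 bp over all marked genes. The medians by expressed copy were not recomputed on joined intervals.

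The 5 widest were Ube3a (2661 bp), Blcap (2424 bp), the tetraspanin gene Cd81 (2325 bp, chr7:143052448-143054772, first exon), Gnas (2202 bp, chr2:174328791-174330992, exons including coding ones) and the nucleosome assembly gene Nap1l4 (1989 bp, chr7:143548048-143550036, first exon). Of these 5, all but Gnas are known to be imprinted mainly in placenta or brain. The 11 members of that kind had a median of 1385 bp over the 9 that were marked, and the 27 other marked members had 900 bp. The 5 narrowest were Kcnq1 (146 bp), Mest (169 bp), Dlk1 (274 bp), Copg2 (275 bp) and Peg13 (343 bp). Next came Cdkn1c, a cyclin-dependent kinase inhibitor, at 355 bp, and Airn at 356 bp. Cdkn1c had 5 separate intervals of 42 to 355 bp over its short gene body and just upstream, and each of its 5 starts lay within 1 kb of one.

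**Figure D3:**
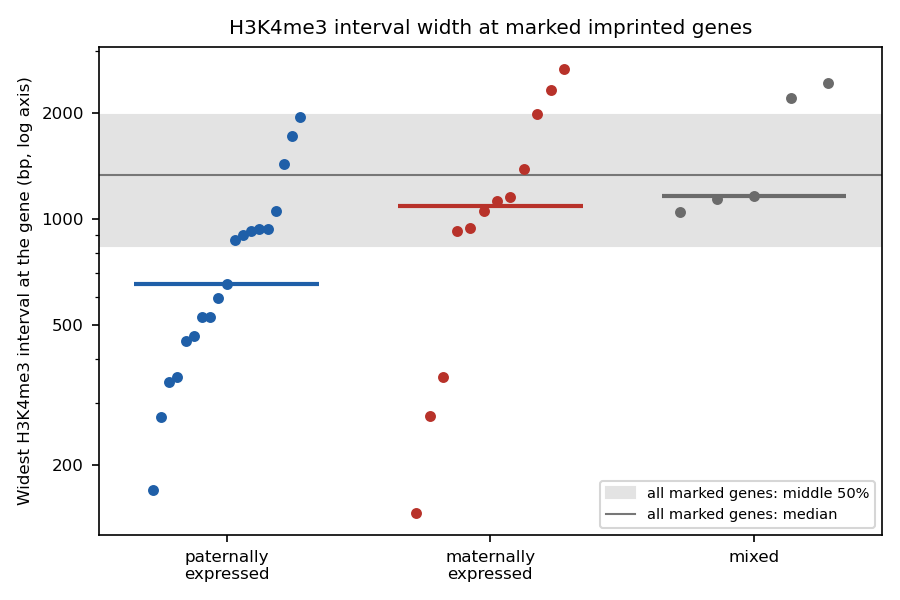
Width of the widest H3K4me3 interval within 1 kb of a transcript start (bp, log axis) for the 36 marked members, 1 point each, by expressed copy, with coloured lines at the group medians of 651, 1088 and 1164 bp. The grey line and band are the median (1329 bp) and middle 50% (837 to 1966 bp) of all marked genes of these types.

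The other marked members fell between these values. Among the regulators of growth, Plagl1 had 900 bp at an upstream start and 803 bp at its DMR promoter. Phlda2, which restrains placental growth, had 923 bp and 226 bp, and Ascl2, a transcription factor of trophoblast, had 943 bp and 165 bp. Dio3, the deiodinase that inactivates thyroid hormone, had 1049 bp over its start and 649 bp in its antisense RNA Dio3os. Of the zinc finger and ring finger genes, Zdbf2 had 1945 bp and Mkrn3 had 651 bp, 244 bp downstream of its start. Peg12, a Frat family gene, had 449 bp. The retrotransposon-derived placental gene Peg10 and Sgce, the sarcoglycan gene it faces away from, shared intervals of 504 and 527 bp. H13, a signal peptide peptidase gene that hosts the imprinted retrogene Mcts2, had 1164 bp. Impact, a regulator of the kinase Gcn2, had 486 bp at an upstream start and 1429 bp beside its inner start.

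Gnas shows how several promoters of 1 imprinted gene were marked. This locus makes the stimulatory G protein alpha subunit and, from other promoters, the maternally expressed Nesp and the paternally expressed Gnasxl and 1A transcripts. It carried 5 intervals, of 1237 bp beside the main Nesp start (258 bp downstream of it, with 2 lesser starts inside), 834 bp in the antisense Nespas, 579 bp beside the Gnasxl start, 542 bp at the 1A starts (6 starts inside) and 2202 bp at the Gnas start (4 starts inside). In all 14 of its 16 starts were within 1 kb of an interval. Over all members 145 of 288 starts were (50.3%), against 47.6% of the starts of all genes of these types.

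By cluster, every listed member was marked in 12 of the 18 clusters. In the Kcnq1 cluster on chromosome 7, 7 of 9 members were marked, Slc22a18 and Tspan32 being the others. In the Dlk1-Meg3 cluster on chromosome 12, 3 of 6 were (Dlk1, Meg3 and Dio3), and in the Snrpn-Ube3a cluster 4 of 6 were. The Peg3 and Peg13-Kcnk9 clusters had 2 of 3 marked members each, and the H19-Igf2 cluster had 1 of 2. The spans of the 18 clusters, drawn from the first to the last listed member, added up to 6.61 Mb and held 93 H3K4me3 intervals, or 14.1 per Mb, against 10.6 per Mb on the assembled chromosomes. Because the spans were cut around genes, these densities are not matched for gene content, and the same holds for HA-Tex10 below. Single spans ran from 4.32 per Mb (Snrpn-Ube3a) to 171 per Mb (Gnas). In the Dlk1-Meg3 span 6 of 13 intervals lay at listed members, and in the Kcnq1 span 13 of 21.

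**Figure D4:**
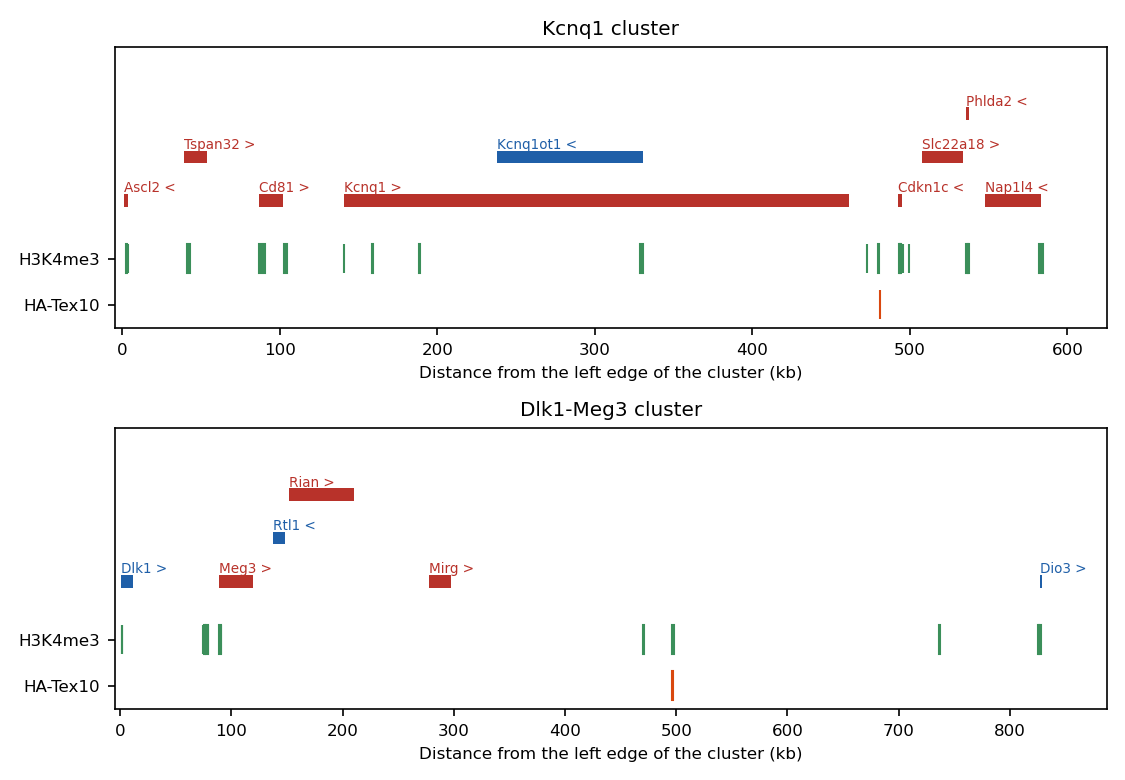
Listed genes (bars, blue for paternally and red for maternally expressed, > for the plus and < for the minus strand) and the deposited H3K4me3 (green) and HA-Tex10 (orange) intervals across the Kcnq1 and Dlk1-Meg3 clusters, in kb from the left edge, intervals drawn with a minimum line width. Each cluster holds 1 HA-Tex10 interval, and neither lies at a listed gene.

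HA-Tex10 was found at a small share of the imprinted genes, as of all genes of these types. An HA-Tex10 interval lay within 1 kb of a start of 2 of the 46 members (4.35%), Zrsr1 and Commd1, against 6.98% of genes of these types. Of the 36 members with H3K4me3 these were 2 (5.56%, Wilson 95% interval 1.54 to 18.1%), against 13.9% of marked genes, a value inside that interval. Without chromosome 8, which holds no member and raises the shares over all genes, these were 6.17% of genes and 12.3% of marked genes. Both counts of members rest on 1 interval of 39 bp (chr11:22972671-22972709), in an exon of Zrsr1 and of 1 Commd1 transcript and inside the 868 bp H3K4me3 interval of the Zrsr1 promoter. It lay 666 bp downstream of the main coding start of Zrsr1 and 506 bp upstream of a lesser one. It was 150 bp from a Commd1 start that is not the gene's main one. It is narrow beside the median HA-Tex10 interval of 232 bp, and 0 of the 46 members had HA-Tex10 when intervals under 150 bp were left out (a setting chosen after seeing the data), against 5.56% of genes. On chromosome 7, 0 of 21 members had HA-Tex10, against 7.08% of genes there. Of the 15 marked members among them 0 had it, which allows a share of up to 20% (3 counts of 15, for counting error only), against 14.9% of marked genes on that chromosome.

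Apart from these 2, the nearest HA-Tex10 interval was 12.6 kb from Cdkn1c, 13.9 kb from Impact, 22.8 kb from Snrpn, 27.1 kb from Slc22a18 and 44.7 kb from H13. The distances of Cdkn1c and Slc22a18 run to the same interval, and that of Snrpn to an interval whose placing is not unique (below). The members' median distance was 303 kb, against 194 kb for all genes of these types (middle 50% 48.2 to 580 kb), and the members' quartiles, 115 and 459 kb, lay inside that range. Without chromosome 8 the median of all genes was 210 kb. The largest distances were 2126 kb for Ndn, 2095 kb for Magel2, 2052 kb for Mkrn3 and 2008 kb for Peg12, which are neighbours.

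**Figure D5:**
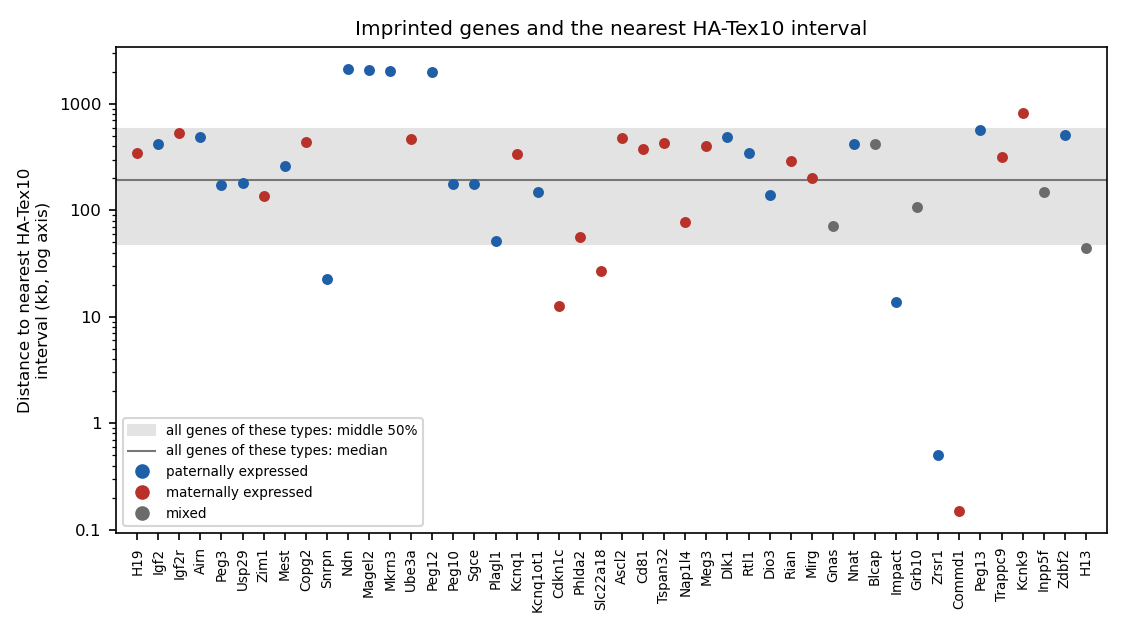
Distance from each of the 46 imprinted genes to the nearest HA-Tex10 interval (kb, log axis), with genes in cluster order and coloured by expressed copy. The line and band are the median (194 kb) and middle 50% (48.2 to 580 kb) over all genes of these types, and Zrsr1 and Commd1 are the only points under 1 kb.

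Within the 18 cluster spans there were 7 HA-Tex10 intervals, or 1.06 per Mb, against 1.55 per Mb on the assembled chromosomes, and 14 of the spans held none. Of the 7, 4 lay in the Snrpn-Ube3a span. Of these, 3 lay in Snhg14, the noncoding host of small nucleolar RNAs that runs antisense to Ube3a (chr7:59769834-59770138, chr7:59771543-59771751 and chr7:59789445-59789529), and 1 between genes (chr7:60162978-60163231). In all 4, over 50% of the 32-base words of the interval occur more than once in the genome (88.3% in the first and 100% in the others), so their placing is not unique. The interval of the Kcnq1 span (chr7:143446507-143446683) and that of the Dlk1-Meg3 span (chr12:109948428-109948754) lay between genes, had 0% such words, and only the second overlapped H3K4me3. At the members themselves 0 of 56 intervals of either antibody were mostly of repeated words. The highest share was 18.3%.

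Motifs were counted on both strands in the 300 bp around the start used for each marked gene, as letters only. TGCCGC, the core recognised when methylated by ZFP57, the zinc finger protein that protects imprints, was present at 11 of 36 members (30.6%), against 25.6% of marked genes of these types. GGGCGG, the GC box, was present at 22 (61.1%, against 67.0%), GCCATNTT, a YY1 motif, at 1 (Mkrn3, 2.78%, against 8.53%), and the core motif of CTCF at 0 (against 0.0512%). The first, second and last of these all hold CCGC on one strand, so their matches can share letters. At the start used, TGCCGC was present at 5 of the 16 marked members with a germline DMR at a promoter (31.25%) and at 6 of the 20 others. At the 17 DMR promoters themselves, which were assigned after their values were seen, it was present at 9 (52.9%), against 31.0% of the 29 other CpG-rich member promoters and 25.8% of CpG-rich promoters of other genes. Unlike the other sets, the 17 were not held to the CpG limit or to basic transcripts. The windows of Peg10 and Sgce overlap, and both count among the 9. TGCCGC occurred 4 times at Mest, 3 times at Inpp5f and 2 times at Snrpn, the first 2 of which had no H3K4me3 within 1 kb of that promoter.

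A second list of imprinted genes, 33 of the same gene types and not among the 46, had 24 marked genes (72.7%, 55.8 to 84.9%). Their median widest interval was 877 bp, and 2 had HA-Tex10 (6.06%). Of 18 genes that set or keep imprints, such as DNA methyltransferases and zinc finger proteins, 16 were marked (88.9%, 67.2 to 96.9%). Their median was 2280.5 bp, and 2 had HA-Tex10 (11.1%). Of all genes of these types 49.1% were marked, with a median of 1329 bp, and 6.98% had HA-Tex10.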

How the data were processed

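The authors deposited lists of interval positions (first and last base, in bp), and their score columns hold no values. Per the submitters' processing notes, Bowtie2 2.3.4.3, SAMtools 1.9, MACS2 2.1.2, HOMER and the build mm10 were used. The caller's settings, the use of the input and how replicates were combined are not given in the sources used here. The H3K4me3 list held 29002 intervals and the HA-Tex10 list 4238 on the assembled chromosomes. A further deposited HA-Tex10 list, of 2990 distinct intervals, served as an alternative.

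Starts came from every transcript of GENCODE M21, and sequence from the RefSeq genome GRCm38.p6, with Python 3.11.15, pandas 2.3.3 and pysam 0.24.0. Distances ran from a start to the nearest base of an interval, coordinates count from 1, and the scoring was tested on simulated intervals. Shares have Wilson 95% intervals (scipy 1.17.1), which cover counting only.

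The members, lists and alternatives were chosen with earlier results of these data known. The expressed copy and DMR of each gene are from general knowledge of imprinting. The DMR promoters, and H13 as a gene with no DMR at its promoter, were set after their values were seen. Coordinates are given for members with HA-Tex10, the 5 widest and 5 narrowest, and 10 preset pairs of neighbours that differ in expressed copy, and every unmarked member is named. Printed promoters were picked after their values were seen. Alternatives were other windows (500 bp and 2.5 kb), other starts, wider, joined or centred intervals, fewer members and the further HA-Tex10 list.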

Additional observations from a re-analysis of the deposited data

How the results depend on the processing

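Of 65 values recomputed under alternative settings, 51 stayed within the counting error or within 1.5 times the reported count, and 14 moved. The count of members with HA-Tex10 was 2 as reported. It was 1 with a 500 bp window, with the starts of basic transcripts, with the 5′-most start or without the members imprinted mainly in placenta or brain. It was 0 with intervals wider than the median and with intervals under 150 bp left out (the second chosen after seeing the data). In both of these the share of marked members with HA-Tex10 was 0% and the clusters with HA-Tex10 at a member numbered 0. With intervals wider than the median, 23 members had H3K4me3 (13 lost) and 9 paternally expressed ones did. Without the tissue-limited members 5 maternally expressed ones did, of 10 left. The median widest H3K4me3 interval was 1388.5 bp once intervals within 1 kb were joined. The 5′-most start lost the mark at Blcap, Igf2, Mest, Nnat and Snrpn, the 500 bp window at Airn, the basic transcripts at Nnat and the 150 bp minimum at Kcnq1, and the 2.5 kb window gained Tspan32. The causes were not tested.

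The files hold 1 list per antibody and no replicate values were used. No paired analysis was possible because of this, and no replicate was left out in turn. With no scores or read counts, width stands in for the strength of an interval, and an absent interval can be a mark below the unknown limit of detection. Members of a cluster are neighbours and not independent, and the expressed copy is known from other tissues, not measured here.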
